A study of Mus musculus with 7 samples.

Results

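Heat shock proteins and their cochaperones were followed on both RNA strands in mouse brain and mouse kidney. The genes were taken by name: a probe set counted where its single gene symbol in the platform annotation began with Hspa, Hspb, Hspd, Hspe, Hsph, Dnaja, Dnajb, Dnajc or Bag and a digit, or with Hsp90. This gave 199 of 50689 probe sets, which stand for 76 of 18278 named genes. All 76 genes had a sense probe set (178 in all) and 18 had a reverse probe set (21 in all). Another 3 probe sets are annotated to both Dnajc19 and Dnajc19-ps and were left out. The family was picked with 2 results already known, the reverse signals of Bag1 and Dnajc3, so the values of that pair are descriptive.

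Total RNA of dissected brain and dissected kidney was read on 7 Affymetrix arrays, each tissue with 1 array per design. Brain antisense was read on U74A and U74B and brain sense on 430A and 430B; kidney antisense was read on U74A and U74B and kidney sense on 430 2.0. The early U74 arrays carry some probe sets laid out the wrong way round, and these capture RNA transcribed from the strand opposite the annotated gene; they are called reverse probe sets here. The labels give no strain, age, sex or number of animals, and no treatment beyond a rinse before extraction. There are no replicates, 1 array standing for each group, so the values have no error, and neither tests nor p-values are given. In whole tissue, fewer cells of a type and less RNA per cell cannot be told apart.

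Hsp70 proteins bind unfolded stretches of other proteins and release them in a cycle driven by ATP. J proteins, whose genes are named Dnaja, Dnajb and Dnajc, bring clients to Hsp70 and speed the hydrolysis of its ATP. Hsp110 and BAG proteins then exchange the nucleotide and let the client go. Hsp90 takes over clients that are near their final fold, the Hsp60 and Hsp10 chaperonin folds proteins inside mitochondria, and small heat shock proteins hold unfolded proteins until Hsp70 can act. The endoplasmic reticulum (ER) and mitochondria have their own members of these families. Neurons are known for J proteins that work at synaptic vesicles, and kidney tubules for heavy mitochondrial and secretory loads.

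Signals are MAS5 values on a linear scale. Sense ratios are log2 of brain over kidney after each brain array was centred on the kidney array, and therefore cannot be recomputed from the signals alone. Each pair of arrays had a floor, 186.4 for 430A, 28.6 for 430B (both after centring), 63.5 for U74A and 98.5 for U74B, and lower signals were set to it. A call needed a difference of 2-fold or more and a signal over the floor in 1 tissue or both, and a fold is written as "at least" or "or more" where the lower tissue was below the floor. A gene is represented by its probe set of highest mean percentile. Array type and tissue cannot be told apart on the sense side. Brain was read by 98 well-measured probe sets on both 430A and 430B, and their log2 signals differed between the arrays with an SD of 0.25 around the median gap; 0 belong to a chaperone gene. Every neuron marker read 1022.9 or more in brain and 43.3 or less in kidney (6 of 6). Of 5 proximal tubule markers, 4 read 79.6 or less in brain and 1357.3 or more in kidney, while Lrp2 read 311.7 in brain and 28.1 in kidney by the probe set that stands for it.

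On the sense strand, 64 of the 76 chaperone genes exceeded the floor in brain, kidney or both. Higher signals in brain were called for 7 and in kidney for 21, and 36 lay between -0.85 and 0.99 on the log2 scale. In percent, brain calls made up 10.9% and kidney calls 32.8% of the chaperone genes, against 18.2% and 26.4% of all 12913 genes that exceeded the floor. The median log2 ratio was -0.16 for the chaperone genes and -0.08 for all genes. Read on 430A alone, 6 of 54 chaperone genes were brain calls and 14 kidney calls, beside 19.4% and 19.7% of all genes. With 430B placed on the 430A scale, the 64 genes gave 11 brain calls and 16 kidney calls, beside 26.6% and 15.7% of all genes.

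**Figure D1:**
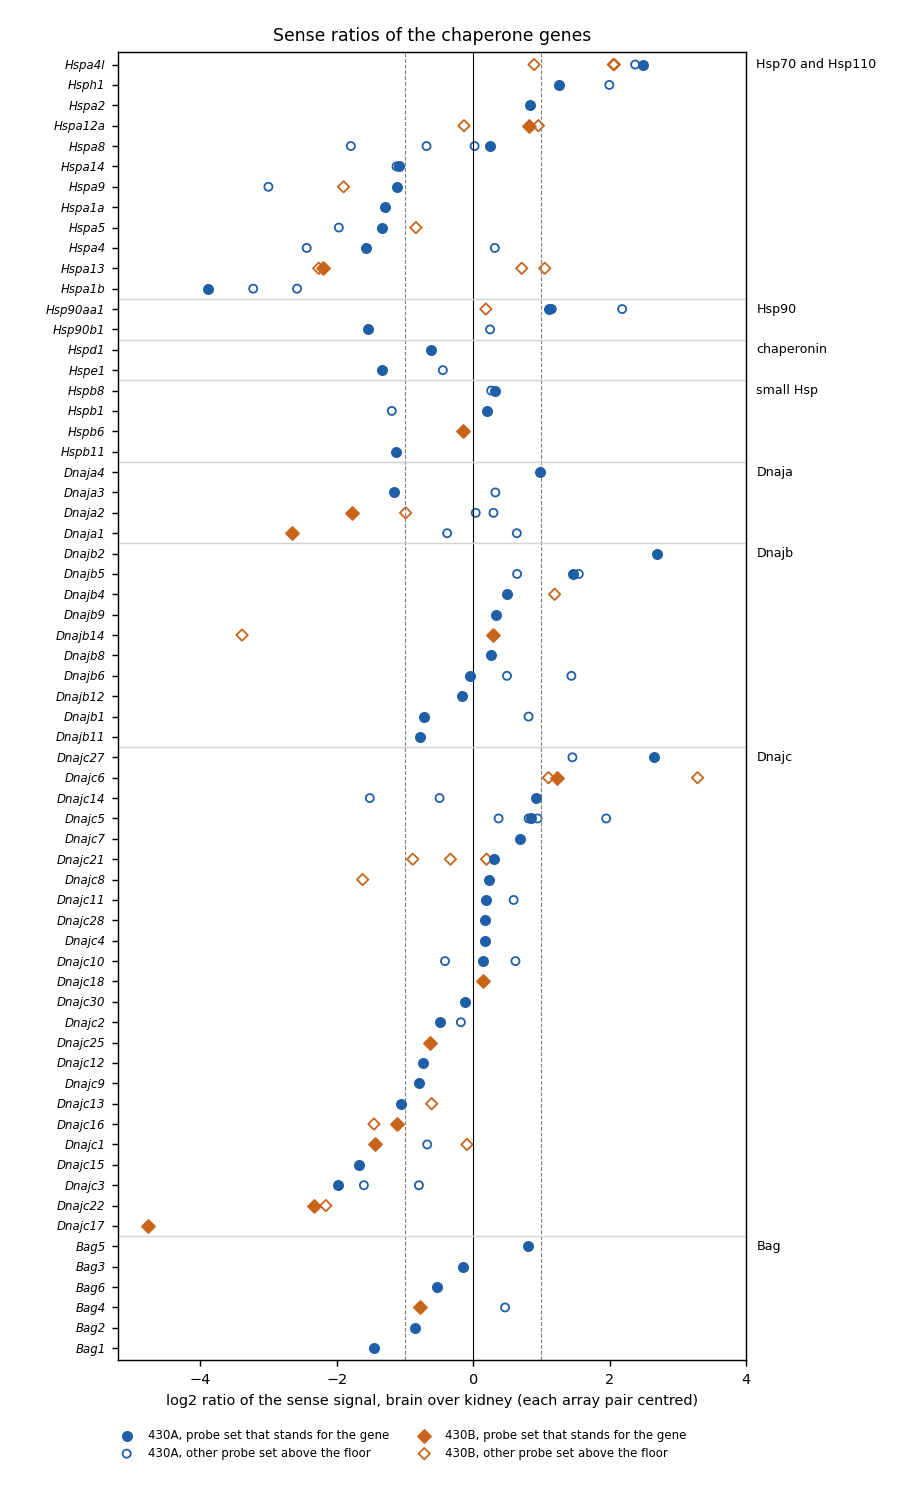
Sense log2 ratio of brain over kidney (x axis) for the 64 chaperone genes above the floor (rows, by family). Filled symbols are the probe set that stands for a gene, open symbols its other probe sets above the floor, circles 430A and diamonds 430B; dashed lines mark 2-fold. Hspa1b lies far to the kidney side with all 3 probe sets and Hspa4l to the brain side with all 5.

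Probe sets of the same gene often differed. Among 38 chaperone genes with more than 1 sense probe set above the floor, the lowest and highest ratio of a gene lay a median of 1.32 apart on the log2 scale, and over 1 apart for 27 genes. Only Hspa13 was called both ways by different probe sets. The values of further probe sets are therefore given beside many of the genes below.

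Hspa1a and Hspa1b, the heat-inducible Hsp70 genes that cells switch on when proteins unfold, were both called higher in kidney. Hspa1b, with the widest difference of the Hsp70 family, read 81.2 in brain and 2745.5 in kidney, a kidney excess of 14.7-fold or more, and its other probe sets read 49.8 against 1740.4 and 25.9 against 1115. Hspa1a read 50.3 in brain and 454.8 in kidney, an excess of at least 2.44-fold. All 4 brain signals were below the floor and all 4 kidney signals above it. Both genes code for nearly the same protein, so a probe set of one may also pair with RNA of the other. Their promoters are near copies as well: 247 of 250 bases upstream of the start site are identical (98.8%).

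The stretch around the only heat shock element match in each promoter is shown because it is the same in both genes. It is given 5′ to 3′ on the minus strand of GRCm38.p6, from RefSeq, at chr17:34959310-34959367 for Hspa1b and chr17:34972228-34972285 for Hspa1a. Capitals mark the match, which ends 96 bases before the start site.
Hspa1b: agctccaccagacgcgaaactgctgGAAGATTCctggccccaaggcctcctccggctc
Hspa1a: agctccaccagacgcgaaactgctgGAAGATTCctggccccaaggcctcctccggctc
The element binds heat shock factor and is built from GAA units in alternating direction. The search used a pair of units, GAANNTTC or TTCNNGAA, which read the same on both strands, in the 250 bases upstream. It matched 14 of the 62 chaperone genes with a promoter entry (22.6%) and 3932 of all 27025 genes (14.5%).

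Other genes that heat induces differed in direction. Hsp90aa1, the inducible cytosolic Hsp90, read 3953.6 in brain and 3297.1 in kidney, 2.15-fold higher in brain after centring. Its 4 probe sets above the floor ran between 0.19 and 2.18, and 3 were brain calls. As deposited, without centring, the ratio was 0.26 and the call was lost. Hsph1, an Hsp110 that exchanges the nucleotide of Hsp70, read 913 in brain and 683.8 in kidney (2.39-fold higher in brain). Its second probe set read 671.1 and 301.8, also a brain call, though signals as deposited gave 0.42. Dnajb1, the main inducible J protein, had log2 ratios of -0.73 and 0.81 from its probe sets. Hspb1 gave 0.20 and -1.19, and Bag3, which joins Hsp70 to small heat shock proteins, -0.16. Of 8 genes known to be induced by heat, 2 were thus called higher in brain and 3 in kidney, Hspa1a, Hspa1b and Dnaja1, the last on 430B. These shares of 25% and 37.5% stood beside 18.2% and 26.4% of all genes. On 430A alone both were 25%, beside 19.4% and 19.7% of all genes. Among immediate early genes, which tissue handling can also induce, Fos read 486 in brain and 81.6 in kidney and Egr1 1237 and 458.1. Of 8 such genes, 6 were above the floor, with 3 brain calls (50%) and 0 kidney calls, beside 18.2% and 26.4% of all genes. Junb was the remaining brain call (1.16), while Jun gave 0.71, Dusp1 -0.07 and Ier2 -0.40. Fosb and Atf3 were below the floor. The 8 genes summed to 2907.6 in brain and 2145.7 in kidney, and their part in the heat-inducible values was not tested.

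The Hsp110 genes divided between the tissues. Hspa4l read 581 in brain and 154.6 in kidney, a brain excess of at least 5.59-fold after centring (log2 ratio 2.48, or 1.91 as deposited), and 4 of its 5 probe sets were called that way with the other at 0.89. Hspa4, its close relative, read 316.8 in brain and 1681.5 in kidney, 2.96-fold higher in kidney. Other Hspa4 probe sets gave -2.44 and 0.32, so the direction held for 2 of 3. Together with Hsph1, 2 of the 3 Hsp110 genes were called higher in brain and 1 in kidney.

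Constitutive Hsp70 genes were closer. Hspa8, the abundant Hsp70 of the cytosol, read 3571.1 in brain and 5388.5 in kidney (log2 ratio 0.25). Its other probe sets lay between -1.79 and 0.02, and 1 of them, at 886.2 in brain and 5501.5 in kidney, was a kidney call. Hspa2 read 195.6 and 195.9, a log2 ratio of 0.84 after centring. Hspa14 read 112.3 in brain and 428.5 in kidney (2.13-fold higher in kidney), and its second probe set gave -1.12. With the sense floor at the 75th percentile, both calls of Hspa14 and Hspa1a ended. Hspa12a, a distant Hsp70 relative, read 1127.1 in brain and 150.9 in kidney on 430B, with a ratio of 0.82 that grew to 2.41, past 2-fold, with 430B placed on the 430A scale. Over the whole Hsp70 and Hsp110 family, 12 genes exceeded the floor, with a median log2 ratio of -1.10. They made 2 brain calls (16.7%) and 7 kidney calls (58.3%), beside 18.2% and 26.4% of all genes.

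Of 8 chaperones of the ER, 5 were called higher in kidney (62.5%) and 0 in brain, beside 26.4% and 18.2% of all genes. On 430A alone, 3 of 7 were kidney calls (42.9%) and 0 brain calls, beside 19.7% and 19.4% of all genes. Hspa5, the ER Hsp70 also called BiP, read 902 in brain and 4095.9 in kidney (2.53-fold higher in kidney), with its other probe sets at -1.97 and -0.84. Hsp90b1, the ER Hsp90 also called Grp94, read 667.1 in brain and 3468.2 in kidney (2.90-fold), although a second probe set, at 675 and 1019.2, gave 0.25. Dnajc3, which brings clients to BiP and holds back the kinase Eif2ak3, read 172.7 in brain and 1219.2 in kidney (3.94-fold). A second Dnajc3 probe set was called for kidney as well (94 against 565.7), another gave -0.80 and 2 were below the floor in both tissues. Quantile normalization took Hspa5 under 2-fold, to -0.83, and the median of its probe sets took Hsp90b1 to -0.64. Among the other ER members, Dnajb11 gave -0.78, Dnajc10 0.15 and Dnajb9 0.33. Hspa13 and Dnajc1 were called higher in kidney on 430B only. Their ratios of -2.19 and -1.43 became -0.60 and 0.17 at the 430A scale. Another Hspa13 probe set was a kidney call too (-2.26, or -0.67 at the 430A scale). The 2 remaining Hspa13 probe sets gave 0.71 and 1.05, the latter a brain call.

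The promoters of Hspa5, Hsp90b1 and Dnajc3 are shown because these were the only chaperone genes whose upstream 250 bases matched the ER stress response element, to which unfolded protein response factors bind. The search used CCAAT, 9 bases of any kind and CCACG, on both strands. It matched 3 of 62 chaperone genes (4.84%) and 35 of all 27025 genes (0.130%). Each stretch is from RefSeq, build GRCm38.p6, 5′ to 3′ on the strand of the gene, with the matches in capitals.
Hspa5, chr2:34772005-34772063, plus strand: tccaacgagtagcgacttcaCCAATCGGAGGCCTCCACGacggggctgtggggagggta
Dnajc3, chr14:118937807-118937865, plus strand: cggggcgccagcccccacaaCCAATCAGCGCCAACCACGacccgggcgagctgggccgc
Hsp90b1, chr10:86705513-86705676, minus strand: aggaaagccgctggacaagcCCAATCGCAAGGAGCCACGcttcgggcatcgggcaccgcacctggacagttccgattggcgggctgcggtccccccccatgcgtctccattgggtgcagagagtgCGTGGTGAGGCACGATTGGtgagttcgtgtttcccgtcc
The Hsp90b1 promoter holds 2 matches, one in each direction, and those of Hspa5 and Dnajc3 hold 1. All 3 genes were called higher in kidney. A match is a run of letters and was not shown here to be bound.

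Genes of ER folding and of the unfolded protein response outside the chaperone names were mostly kidney calls or uncalled. Among 35 above the floor there were 1 brain call and 16 kidney calls (2.86% and 45.7%), with a median log2 ratio of -0.84, beside 18.2% and 26.4% of all genes. On 430A alone the counts were 3 and 13 of 32. Serpinh1, the collagen chaperone Hsp47, read 165.5 in brain and 3333.3 in kidney (11.2-fold higher in kidney). P4hb, a protein disulfide isomerase, read 813.8 and 5600.7 (3.84-fold), and the proline isomerase Ppib 772.7 and 5268.8 (3.81-fold). Uggt1, which checks glycoprotein folding, was called for kidney on 430B (-1.99), and at the 430A scale gave -0.39. Atf6, a sensor of ER stress, was the single brain call, at 283.3 in brain and 244.5 in kidney (2.08-fold), while the median of its probe sets was -0.14. Of the other sensors, Ern1 was a kidney call on 430B (-1.66, or -0.07 at the 430A scale) and Eif2ak3 gave -0.66. The factors they act through were not called, Xbp1 at 0.44, Atf4 at 0.31 and Ddit3 at 0.55. The value of Ddit3 is a lower bound, at 152.3 in brain and 81.3 in kidney, where kidney was below the floor. Of 5 smooth muscle markers, 2 were kidney calls and 0 brain calls. Acta2 read 241.9 in brain and 4384.8 in kidney, Tagln 14.6 and 1148.4, while Des read 154.8 and 22 (0.57), Myh11 and Cnn1 were below the floor, and the 5 markers summed to 440.9 in brain and 5703.1 in kidney. Their part in the Serpinh1 value was not tested.

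Mitochondrial chaperones were called higher in kidney for 4 of 7 genes and in brain for 0, beside 26.4% and 18.2% of all genes. Hspa9, the mitochondrial Hsp70 that pulls proteins through the import channel, read 490.6 in brain and 1909.7 in kidney, 2.17-fold higher in kidney. Its other probe sets above the floor were kidney calls too, at -3.00 on 430A and -1.90 on 430B (-0.30 at the 430A scale), though quantile normalization took the first to -0.81. Hspe1, the Hsp10 lid of the chaperonin, read 492.8 in brain and 2236.1 in kidney (2.53-fold), and its second probe set gave -0.44. Its partner Hspd1, the Hsp60 barrel, read 1187.4 in brain and 3281.6 in kidney and stayed under 2-fold (-0.63). Dnajc15, a J protein of the inner membrane, read 284.2 in brain and 1625.4 in kidney (3.19-fold), and Dnaja3, a J protein of the matrix, 205.9 and 821.1 (2.23-fold) with a second probe set at 0.33. Dnajc30 gave -0.12 and Dnajc11 0.18. Of 16 import partners and proteases above the floor, 4 (25%) were called higher in kidney, near the 26.4% of all genes, and 0 in brain: Clpx, Tomm20, Pam16 and Grpel1, the last a nucleotide exchanger of Hspa9 that read 347 in brain and 1488.1 in kidney.

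Hspd1 and Hspe1 stand head to head, and a search for 3 units of the heat shock element (GAA, TTC and GAA with 2 bases between units, on both strands) matched both at the same 2 overlapping positions between them. It is shown because this is the longer form of the element that Hspa1a and Hspa1b matched in its short form. It was found for 3 of 62 chaperone genes (4.84%) and 139 of all 27025 genes (0.514%), the third being Dnajb6. The sequences are from RefSeq, GRCm38.p6, plus strand, with the matches in capitals.
Hspe1, chr1:55088053-55088082: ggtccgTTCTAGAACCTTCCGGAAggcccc
Dnajb6, chr5:29735846-29735870: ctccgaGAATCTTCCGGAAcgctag
Dnajb6, a J protein that keeps aggregation-prone proteins soluble, read 955.9 in brain and 1766.8 in kidney (-0.04), with other probe sets at 0.50 and 1.44, the last a brain call. So of these 3 genes, Hspe1 alone was called.

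J proteins made 4 brain calls and 10 kidney calls among 38 genes (10.5% and 26.3%), beside 18.2% and 26.4% of all genes. The 4 brain calls were Dnajb2, Dnajc27, Dnajc6 and Dnajb5. Dnajb2, a neuronal J protein that feeds clients to the proteasome, read 873.8 in brain and 242.7 in kidney, 6.45-fold higher in brain, on a single probe set. Dnajc27, a small GTPase with a J domain, read 650.5 in brain and 57.6 in kidney (6.25-fold or more), and its second probe set read 284.9 and 36.3. Dnajc6, or auxilin, recruits Hsp70 to strip clathrin from vesicles. It read 3177.5 in brain and 319 in kidney, 2.35-fold higher in brain, and its other probe sets above the floor read 1185.8 against 8.3 and 260.9 against 15.4. All 3 were called for brain, and the first grew to a log2 ratio of 2.83 at the 430A scale. Dnajb5 read 285.9 in brain and 96 in kidney (2.75-fold or more), a call that ended with the floor at the 75th percentile (0.16). Dnajc5, or cysteine string protein, sits on synaptic vesicles. It read 1031.6 in brain and 1029.4 in kidney (0.84), and 1 of its 5 probe sets passed 2-fold, at 401.4 against 103.3. Dnajc13, a J protein of endosomes, went to kidney, at 189.7 in brain and 705.3 in kidney (2.07-fold). Its second probe set above the floor, on 430B, gave -0.61. The call ended with the floor at the 75th percentile (-0.62) and by the median of its probe sets.

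The Dnaja group, the J proteins closest to the bacterial form, depended on the array. Dnaja1 was represented by a 430B probe set at 1279.1 in brain and 1905.9 in kidney (-2.66), while its 2 probe sets on 430A gave -0.38 and 0.64. Dnaja2 was represented on 430B by 3126.5 in brain and 2526.2 in kidney (-1.78), while 430A gave 0.04 and 0.30. At the 430A scale the 430B values became -1.06 for Dnaja1 and -0.18 for Dnaja2. Dnaja4 read 206 in brain and 66.1 in kidney, a ratio of 0.99 just under 2-fold. This is a lower bound, with kidney below the floor.

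Most remaining Dnajc calls also rested on 430B. Dnajc17, a nuclear J protein, read 196.3 in brain and 1252.8 in kidney (27.1-fold higher in kidney), which held at the 430A scale (-3.16). Its 2 probe sets on 430A were below the floor in both tissues, at 7.8 and 6 in brain and 2.3 and 67.1 in kidney. Dnajc22 read 19.4 in brain and 143.7 in kidney (5.02-fold or more), with its second probe set at 11.1 and 128, but its ratio was -0.73 at the 430A scale. Dnajc16 gave -1.11, which turned to 0.48 at that scale. Dnajc12, a partner of the aromatic amino acid hydroxylases, gave -0.74, and Dnajc9, a histone chaperone, -0.79. Among the genes nearest to even were Dnajc30 (-0.12) and Dnajb12 (-0.17). Dnajc18 read 939.2 in brain and 200.5 in kidney on 430B and gave 0.14, but 1.74, a brain call, at the 430A scale and 2.23 as deposited.

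Of the small heat shock proteins, 4 of 8 were above the floor. Among these, 0 were called higher in brain and 1 in kidney (25%), beside 18.2% and 26.4% of all genes. The kidney call was Hspb11, a subunit of the machinery that builds cilia, at 137.8 in brain and 538.5 in kidney (2.18-fold). It fell to -0.23 with the higher floor. Hspb8, which works with Bag3, read 129.8 in brain and 82.1 in kidney (0.32, with kidney below the floor). Hspb6 read 407.3 and 106.4 on 430B (-0.15, or 1.45 at the 430A scale). Of 12 chaperone genes below the floor in both tissues, Hspb2, Hspb3 and Hspb7 are known from muscle and heart. Hspa1l, Hspb9, Dnajb3, Dnajc5b and Dnajc5g are known from testis. The others were Dnajb7, Dnajb13, Dnajc24 and Hspa12b.

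BAG proteins bind the ATPase domain of Hsp70 and release its nucleotide. Bag1, which links Hsp70 to the proteasome, read 424.4 in brain and 2092.1 in kidney, 2.75-fold higher in kidney. Signals as deposited (-2.30) and quantile normalization (-1.18) kept this call, and the higher floor left the value at -1.46. With 1 unmarked probe set on 430A, the 430B scale, 430A alone, the median of probe sets and the suffix filter could not change it. Bag2 gave -0.85, Bag3 -0.16, Bag5 0.81 and Bag6 -0.53. Bag4 gave -0.78 on 430B and 0.47 on 430A. Bag1 was thus the only one of 6 BAG genes called, a kidney share of 16.7% beside 26.4% of all genes.

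Cofactors of Hsp70 and Hsp90 outside the name rule made 9 brain calls and 6 kidney calls among 29 genes. These were 31.0% and 20.7%, beside 18.2% and 26.4% of all genes, and the median log2 ratio of the cofactors was 0.47. Sgtb, a tetratricopeptide partner of Hsp70, read 568.8 in brain and 133.6 in kidney (a brain excess of 5.47-fold or more after centring, with log2 ratios of 2.45, or 2.09 as deposited), and Tomm34, a cytosolic partner of Hsp70 and Hsp90, 804.9 and 349 (4.13-fold). Cdc37l1, a relative of the kinase-loading factor Cdc37, gave 1.58 and Nudcd3 1.39. Kidney calls included Sil1, the nucleotide exchanger of BiP, at 91.9 in brain and 518.3 in kidney (2.78-fold or more). Those of Unc45b, Sec63 and St13 came from 430B and shrank to -0.89, -0.42 and -0.26 at the 430A scale. For the cytosolic chaperonin TRiC and its helper prefoldin, 1 of 14 genes was higher in brain (7.14%) and 3 in kidney (21.4%). Both shares were below the 18.2% and 26.4% of all genes, while the median log2 ratio was -0.88. On 430A alone, 1 of 13 was higher in brain (7.69%) and 3 in kidney (23.1%), beside 19.4% and 19.7% of all genes. Cct2 gave -1.30, Cct4 -1.37 and Pfdn1 -2.07, against Pfdn2 at 1.57. Of 5 genes for heat shock factors or proteins that bind them, Hsf5 was called for brain (1.61) and Hsf2bp, a binding protein, for kidney (-1.81). Both calls came from 430B and made up 20% each. The Hsf2bp call ended at the 430A scale (-0.21) and that of Hsf5 with the higher floor (0.48). Of 9 crystallins, chaperones and other proteostasis genes, Sqstm1 was called for brain (1.11) and Cryab for kidney (-1.06), 11.1% each.

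On the antisense strand, 11 of the 18 chaperone genes with a reverse probe set were above the floor (61.1%, against 34.6% of all 2915 genes with one). They comprised 3 brain calls and 2 kidney calls. The same calls were made for 19.8% (brain) and 4.66% (kidney) of all 1009 genes above the floor. Bag1 and Dnajc3 had led to the choice of this family, so nothing is read from the counts. That a probe set is reversed was taken from the Affymetrix mask alone.

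**Figure D2:**
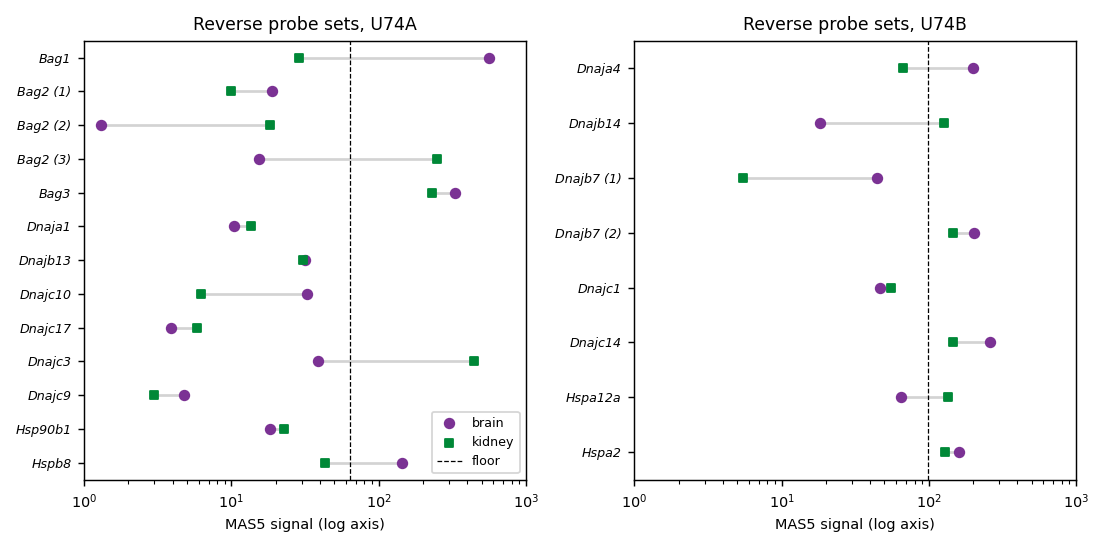
MAS5 signal (log axis) of the 21 reverse probe sets of chaperone genes, U74A left and U74B right; circles are brain, squares kidney, the dashed line the floor of the pair. Bag1 stands far to the right in brain and Dnajc3 and 1 of 3 Bag2 probe sets in kidney.

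The reverse probe set of Bag1 read 557 in brain and 28.8 in kidney, a brain excess of at least 8.77-fold. Within its array it stood at percentile 98.7 in brain and 64.2 in kidney. Hspb8 read 143.2 in brain and 42.9 in kidney (2.26-fold or more), and Dnaja4 199.6 and 66.7 (2.03-fold or more). The calls of Hspb8 and Dnaja4 ended with median-centring, with quantile normalization and with the floor at the 90th percentile, while that of Bag1 did not.

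The reverse probe set of Dnajc3 read 39 in brain and 445.4 in kidney, a kidney excess of at least 7.01-fold. For Bag2, 1 reverse probe set read 15.4 in brain and 248.4 in kidney, an excess of at least 3.91-fold. Its other 2 were below the floor in both tissues, at 18.8 and 1.3 in brain and 10 and 18.3 in kidney. The Dnajc3 probe set and all 3 of Bag2 carry a suffix mark, which Affymetrix gives where probes could not all be chosen as unique or by the usual rules. Without marked probe sets 7 genes were above the floor and 0 were called higher in kidney.

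The other 6 genes above the floor lay within 2-fold. Bag3 read 328.7 in brain and 229.9 in kidney, Dnajc14 259.2 and 147, Dnajb7 201.5 and 146.3 and Hspa2 161 and 129.6. The probe sets of Bag3 and Dnajb7 carry a suffix mark. A second marked probe set of Dnajb7 was below the floor, at 44.3 in brain and 5.5 in kidney. Dnajb14 read 18.3 in brain and 126.2 in kidney and Hspa12a 64.6 and 134.3, where the brain values were below the floor. Reverse probe sets of Dnaja1, Dnajb13, Dnajc1, Dnajc9, Dnajc10, Dnajc17 and Hsp90b1 were below the floor in both tissues, between 3 and 55.6. Dnajc9 was lowest, at 4.8 in brain and 3 in kidney, and Dnajc1 highest, at 46.3 and 55.6.

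Of the 18 genes, 10 were above the floor on both strands, 6 with ratios of the same sign and 4 of opposite sign. Dnajc3 was called for kidney on both strands. Its antisense signal stood at percentile 64.5 in brain and 99.3 in kidney, and its sense signal at 64.8 and 94.5. Bag1 was called in opposite directions: antisense at percentile 98.7 in brain and 64.2 in kidney, sense at 86.0 and 97.0. Since probes bind with unequal strength, the percentile of a reverse probe set is no measure of antisense against sense RNA. Among all 806 genes above the floor on both strands, 103 were called on both, 65 the same way and 38 opposite ways.

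**Figure D3:**
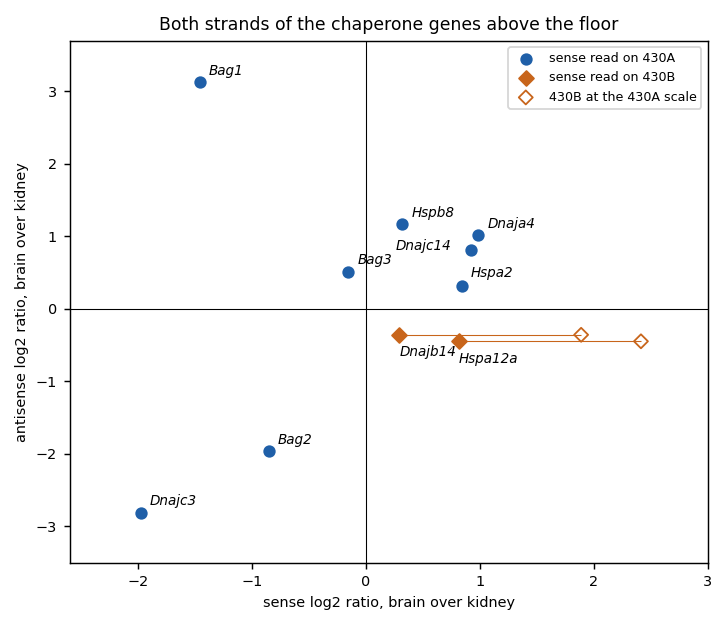
Antisense log2 ratio of brain over kidney (y axis) against the sense ratio (x axis) for the 10 chaperone genes above the floor on both strands; circles were read on 430A, diamonds on 430B, and open diamonds give the latter at the 430A scale. Bag1 lies alone at upper left (-1.46 and 3.13) and Dnajc3 at lower left (-1.98 and -2.81).

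The remaining genes of this set had smaller ratios. Those of Hspb8 and Dnaja4 are lower bounds, with kidney below the floor on both strands. Bag2 was lower in brain on both strands (-0.85 sense, -1.97 antisense). Hspb8 (0.32 and 1.17), Dnaja4 (0.99 and 1.02), Dnajc14 (0.92 and 0.82) and Hspa2 (0.84 and 0.31) were above 0 on both. For Dnajc14 this holds for 1 of 3 sense probe sets: another, at 106.2 in brain and 543.9 in kidney, was a kidney call (-1.52), and the remaining one gave -0.49. Hspa2 sense signals as deposited were even, at 195.6 in brain and 195.9 in kidney. Bag3 (-0.16 and 0.52), Dnajb14 (0.29 and -0.36) and Hspa12a (0.82 and -0.45) differed in sign between the strands with no call on either. Antisense Bag3 turned to -0.30 when median-centred and -0.43 after quantile normalization, the sign of its sense ratio. The sense value of Dnajb14, at 585 in brain and 112.7 in kidney on 430B, became 1.89 at the 430A scale, a brain call. Its second sense probe set, at 92.3 in brain and 299.5 in kidney, was a kidney call (-3.39), and the median of both was -1.55. Dnajb7 was above the floor with 1 of its 2 reverse probe sets, both suffix-marked. Its sense probe set read 26.4 in brain and 4.6 in kidney, both below the floor.

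The RefSeq annotation of GRCm38.p6 places a gene on the opposite strand, overlapping, for 8 of the 18 chaperone genes with a reverse probe set. Over all genes it does so for 689 of the 2299 compared, a part of the 2915 with a reverse probe set. It does so for 5 of the 11 chaperone genes above the antisense floor and 3 of the 7 below it. Dnajb7 overlaps Xpnpep3, a mitochondrial aminopeptidase, whose own sense probe set read 153.9 in brain and 224.6 in kidney on 430B. After centring this was a kidney call (-2.63, or -1.03 at the 430A scale). Dnajc14 overlaps Ormdl2 and Tmem198b. Tmem198b read 1097.2 and 225 on 430B and was not called (0.20, or 1.80 at the 430A scale). Hspa12a overlaps Eno4, an enolase, with the unnamed loci Gm41877 and Gm52393. Eno4 read 262.8 in brain and 31.8 in kidney on 430B and was not called (0.96, or 1.11 at the 430A scale). Dnajb14 overlaps Gm40155 and Hspb8 Gm36841. Bag1, Bag2, Bag3, Dnajc3, Dnaja4 and Hspa2 overlap no such gene in this annotation. Overlap of loci does not show that a reverse probe set lies in the overlapping stretch, which was not tested.

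The scale of 430B bears on 16 chaperone genes represented there, of which 1 was called higher in brain and 7 in kidney. Centring 430B by itself, or tying it to 430A by the 100 probe sets that both brain arrays hold, puts its ratios 1.60 apart on the log2 scale. At the 430A scale, 2 of the 7 kidney calls remained, those of Dnaja1 and Dnajc17. For 8 chaperone genes with probe sets above the floor in both tissues on each array, 430B centred by itself lay a median of -1.10 from 430A, and 430B at the 430A scale 0.20. Over all 805 such genes the medians were -0.61 and 0.55.

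**Figure D4:**
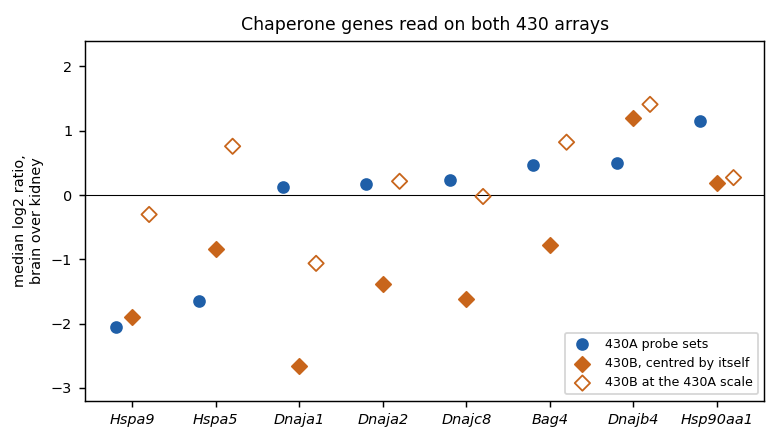
Median log2 ratio of brain over kidney (y axis) for 8 chaperone genes read on both 430 arrays (x axis): circles 430A, filled diamonds 430B centred by itself, open diamonds 430B at the 430A scale. For Dnaja2, Dnajc8 and Bag4 the open diamond lies nearer to 430A, and for Hspa9 and Hspa5 the filled one.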

How the data were processed

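Total RNA (8 micrograms for brain, 6.75 for kidney, per the labels) was labelled with biotin and hybridised. Each deposited number is a linear MAS5 intensity for 1 probe set, per the submitters' processing notes, with the scaling target not given in the sources used here. On U74, only probe sets that the Affymetrix mask marks as reverse were kept, per the labels. Detection calls were not used here.

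Probe sets took their gene from the platform annotation held by GEO, updated through gene identifiers to RefSeq (GRCm38.p6), which changed 0 chaperone symbols. From sense ratios the median was subtracted, taken over probe sets whose signal exceeded the array median in each tissue (-0.84 for 430A, 2.08 for 430B), with the higher median as floor; antisense signals were used as deposited, with the higher 75th percentile as floor. For probe sets that 430A and 430B share, 430A was read. Calculations used Python 3.11.15, numpy 2.4.6 and pandas 2.3.3, and the calling steps were tested on simulated data.

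The members, gene lists, groups by compartment and rules were chosen with earlier results of these data known. Named were every chaperone gene with a reverse probe set, in each family up to 6 genes with the largest called ratio each way and the 2 nearest to 0, in each of 6 lists up to 4 each way, and Bag1 and Dnajc3; other genes in the text were chosen after their values were seen. Alternatives were other scalings, floors, gene summaries and probe set filters. The suffix filter dropped every probe set with a letter mark, including the a mark of the 430 arrays. On the sense side it is therefore not a filter for unique probes alone. Reading 430A alone was added after seeing the data. Precision is limited by having 1 array per tissue and design.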

Additional observations from a re-analysis of the deposited data

Results flagged for a closer look

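Bag1 stood out because its strands were called in opposite directions between the tissues. The antisense log2 ratio of brain over kidney was 3.13, and the sense ratio was -1.46. The difference between the strands was not tested, since each tissue had 1 array per design and the strands were read on different arrays. Each strand was read by 1 probe set without a suffix mark.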

How the results depend on the processing

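With 1 array per tissue and design, no array could be left out and no spread estimated. No paired analysis was possible because each group had 1 array. Over 79 gene and strand values followed through 586 comparisons with other settings, 483 stayed on their side of 2-fold, 70 calls dropped under it, 20 values newly passed it and 13 called values changed sign. Values under 2-fold changed sign in 14 more comparisons, 11 among the 483 and 3 among the 20; they belong to antisense Bag3 and to sense Dnajb14, Dnajb6, Dnajc14, Hspa2, Hspa8, Hspb1 and Hspb6. The settings themselves moved the median of all genes: on the sense side it was -0.08, but 0.02 as deposited and 0.29 with 430B at the 430A scale, and on the antisense side 0.35, but 0 when median-centred and 0.04 after quantile normalization. Of the sense calls, 4 of 7 for brain (Dnajb2, Dnajc27, Dnajc6 and Hspa4l) and 5 of 21 for kidney (Bag1, Dnajc15, Dnajc3, Hspa1b and Hspa4) held under every setting that gave a value. On the antisense side these were 1 of 3 for brain (Bag1) and 1 of 2 for kidney (Dnajc3, which has no probe set without a suffix mark). Some settings could not change a value. The 430B scale and 430A alone leave a gene represented on 430A as it was, and the median leaves a gene with 1 probe set. The 483 and the calls that held thus include comparisons fixed in advance.

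The 7 sense brain calls became 11 as deposited, 11 with 430B at the 430A scale and 17 with no floor (17.2%, 17.2% and 22.4%, beside 24.2%, 26.6% and 33.7% of all genes), and the median of the chaperone genes, -0.16, became -0.60 as deposited and 0.16 at the 430A scale. On the antisense side, 11 genes above the floor became 6 with the higher floor (the 90th percentile), 18 with no floor and 7 without suffix-marked probe sets. The 3 antisense brain calls became 1 when median-centred, 1 after quantile normalization and 1 with the higher floor (9.09%, 9.09% and 16.7%). Of all genes, 19.8% were brain calls in the main setting, and 7.31%, 6.99% and 17.6% under these settings. The 2 kidney calls became 1 with the higher floor, 4 with no floor and 0 without marked probe sets (16.7%, 22.2% and 0%, beside 3.95%, 20.4% and 3.90% of all genes). They stayed 2 when median-centred and after quantile normalization, where kidney calls of all genes rose from 4.66% to 9.02% and 9.80%. The antisense median, 0.46, was 0.024 when median-centred, 0.11 after quantile normalization, 0.15 with the higher floor, 0.18 with no floor and 0.82 without marked probe sets. Of the 10 genes above the floor on both strands, the higher floor left 3 (2 of the same sign, 1 of opposite sign), and with no floor there were 18, of which 13 had the same sign. For the other proteostasis lists, the 13 brain calls of 108 genes became 7 of 105 as deposited and 8 of 84 with the higher floor. They became 23 of 115 with no floor and 8 of 109 by the median of probe sets. Of all genes, 18.2% were brain calls in the main setting, and 24.2%, 12.6%, 33.7% and 16.2% under these settings. The 31 kidney calls of the lists became 47 of 105 as deposited, while those of all genes went from 26.4% to 26.6%. The median of the lists, -0.29, became -0.91 as deposited and -0.031 without marked probe sets.

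Called genes whose sense ratio changed sign were Atf6 (-0.14 by the median of probe sets), Dnaja1 (0.64 without marked probe sets and on 430A alone), Dnaja2 (0.31 as deposited, 0.037 without marked probe sets and on 430A alone), Dnajc1 (0.38 as deposited, 0.17 at the 430A scale) and Dnajc16 (0.84 and 0.48). As deposited, Sec63 gave 0.063, St13 0.23 and Uggt1 0.10. Of these called genes, all but Atf6 were represented on 430B. Signals as deposited and the 430A scale change the shift of 430B by construction, and leaving out marked probe sets or 430B changes which probe set stands for a gene; for the other changes the cause was not tested.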
